A study of Mus musculus with 40 samples.

Results

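The genes described here encode the machinery that moves membrane and protein between the compartments of a cell, and they were measured in whole bone marrow of mice given cyclophosphamide. They were chosen by name. A gene was a member when its symbol begins with Rab, Arl, Sec, Vps, Snx or Stx and a number, with Arf and a number from 1 to 6, with Vamp, with Cop and a coatomer letter, or with Ap, a number from 1 to 4 and a subunit letter. A member also needed a value in at least 3 mice of each of the 4 groups. The platform annotation held 141 genes whose symbol fits, and 60 of them met the second condition, which is 1.13% of the 5297 genes and unnamed probes tested. The other 81 had values in too few mice or in none, and they include well-known names such as Rab7, Rab11a, Rab1a, Arf1, Arf6, Sec61a1, Ap2m1, Snx1, Vamp3 and Vamp8. A choice by symbol also takes in neighbours of the pathway. Sec11a and Sec11c belong to the signal peptidase, Sec61g to the channel through which new proteins enter the endoplasmic reticulum, and Arl2bp and Rab5if are named for a GTPase that they bind.

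Proteins made for secretion or for membranes enter the endoplasmic reticulum through the Sec61 channel and leave it in vesicles coated with COPII, whose inner layer is built from Sec23 and Sec24 and whose outer cage is built from Sec13 and Sec31. COPI coats carry material back, adaptor protein complexes (AP) gather cargo at the trans-Golgi and at endosomes, and sorting nexins and the Vps35 retromer return cargo from endosomes. Rab and Arf GTPases mark each membrane and recruit coats and tethers, and syntaxins and VAMPs are the SNARE proteins that fuse a vesicle with its target. In marrow the same machinery fills the granules of neutrophils and mast cells, recycles the transferrin receptor in red cell precursors and serves the secretion of antibody by plasma cells.

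All mice were of the inbred strain DBA/2. A control group of 5 mice was untreated, and 3 further groups of 5 mice received cyclophosphamide, whose metabolites cross-link DNA, as an intraperitoneal dose of 83 mg/kg, with marrow taken 1, 2 or 5 days later. Mice of a group carry numbers as biological replicates in the labels, and RNA of each was hybridised on 2 arrays in Cy5 against 1 common Cy3 reference. That reference is described as a pool of untreated marrow, while its treatment field names cyclophosphamide, so a level against the pool is read only relative to other groups. An array gave values for 4079 to 7977 of its 13443 probes. Values are log2 ratios of mouse over pool, averaged over the 2 arrays of a mouse and then over the probes of a gene, and a difference of 1 is a doubling. Log base 2 is assumed, because the sources used here do not state the base. A ratio on this scale says nothing of how abundant a transcript is, so no gene is ranked against another by level. Differences between groups are given with the standard error of limma's fit, and a member is said to have risen or fallen when its adjusted p (limma, Benjamini-Hochberg over all 5297 features) was under 0.05. Control mouse 4 and day 1 mouse 1 were the least like their own groups (mean correlation 0.239 and 0.354 with the other mice of the group).

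Vesicle trafficking genes moved on days 1 and 2 in both directions, between 1.68-fold lower (Sec11c of the signal peptidase) and 2.16-fold higher (the sorting nexin Snx24) among those called. Of the 20 members called on day 1 or 2, 0 were past the threshold against control on day 5. On day 1, 13 of the 60 members differed from control (21.7%, against 19.1% of all features). Of these, 6 were higher (10% of the members, against 10.7% of all features) and 7 lower (11.7%, against 8.38%). Day 2 gave 14 (23.3%, against 19.2%), with 6 higher (10%) and 8 lower (13.3%), against 9.61% of all features in each direction. On day 5 a single member differed, sorting nexin Snx2, called on neither earlier day, which was lower (1.67% of the members, against 2.62% of all features in either direction and 1.72% lower), and 0 members were higher (0.906% of all features). The shares for each day are near those of all features, and the small gaps were not tested. A moderated F test over the 4 groups called 24 of the 60 (40%, against 30.7% of all features), and 33 members were called in no test. The comparisons of days 1, 2 and 5 share the same control mice, so their values are set side by side and not counted as separate evidence. In whole marrow a lower value can reflect fewer cells of a type or less RNA per cell, and these arrays cannot tell them apart.

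The median member stood -0.11 from control on day 1 and -0.13 on day 2, beside -0.01 and -0.02 for all features, and 40 of the 60 members (66.7%) lay below 0 on each of these days, against 52.2% and 53.4% of all features. On day 5 the median was 0.02 beside 0.01. The median of the members varied between mice of a group by 0.0599 (SD, pooled over groups). Counted without a test, the treated mice did not overlap the controls for 14 members on day 1 (23.3%, against 13% of all features). Day 2 gave 14 such members (23.3%, against 19%) and day 5 gave 6 (10%, against 6.34%). Only Snx24 changed by 2-fold or more among the members called. The count for day 2 rested on single mice to some extent. It was 8 without control mouse 1, 9 without control mouse 3, 7 without day 2 mouse 1 and 7 without day 2 mouse 3. The shares of all features in these fits are not given here, so these counts say nothing particular to the members.

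**Figure D1:**
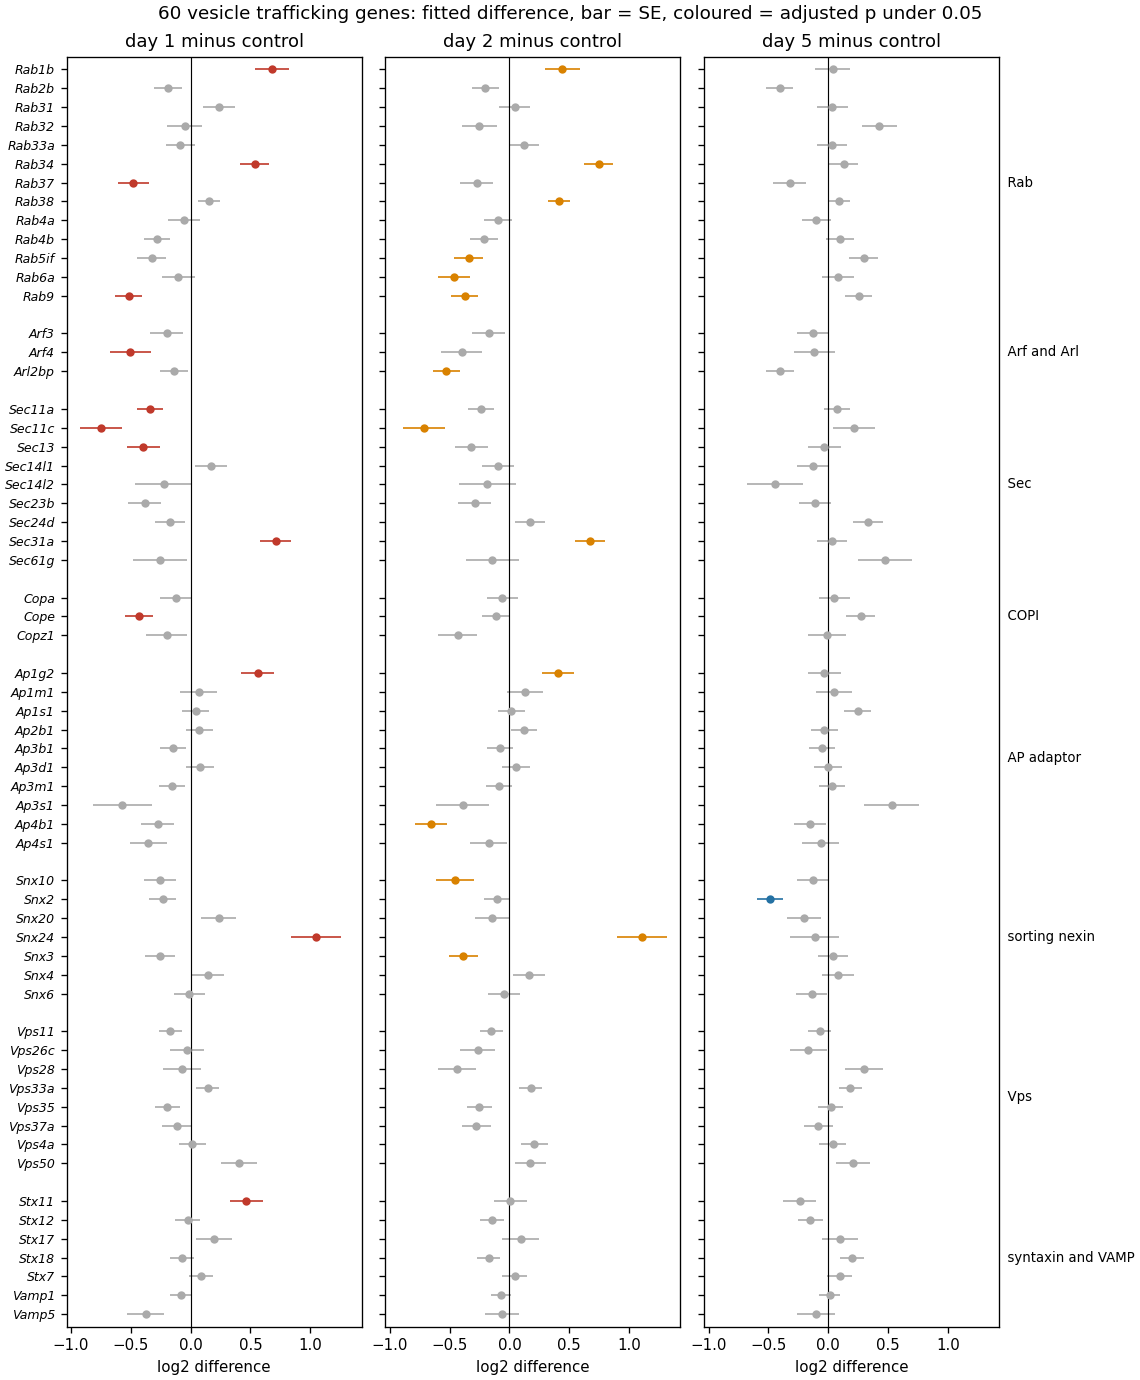
Fitted log2 differences from control (x axis) on days 1, 2 and 5 for all 60 members, grouped by role from top to bottom. Points are fitted differences, bars are standard errors, and coloured points have an adjusted p under 0.05. Coloured points lie on both sides of 0 in the first and second panels, with Snx24 farthest to the right, and Snx2 is the only coloured point in the day 5 panel.

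The Sec proteins of the endoplasmic reticulum and the COPII coat had 9 members. On day 1, 1 rose and 3 fell (10.7% and 8.38% of all features). On day 2, 1 rose and 1 fell (9.61% of all features in each direction). Counts in these small role groups are read beside such shares, and no difference between role groups was tested. The member that rose was Sec31a, the larger subunit of the outer COPII cage. Its values in control mice 1 to 5 were -0.16, -0.05, -0.05, -0.47 and -0.13, and on day 1 they were 0.51, 0.66, 0.55, 0.21 and 0.77. On day 2 they were 0.89, 0.21, 0.56, 0.53 and 0.32, and on day 5 they were 0.02, -0.10, -0.12, -0.41 and -0.09. Every mouse of days 1 and 2 lay above every control mouse, and the day 5 mice overlapped the controls. Sec31a was 1.64-fold higher on day 1 (0.71 ± 0.13, adjusted p = 0.000895) and 1.6-fold higher on day 2 (0.67 ± 0.13, adjusted p = 0.00105).

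Sec31a is shown with the 250 bases before its annotated start because it rose on both days and repeats 1 motif (RefSeq, GRCm38.p6, chr5:100416235-100416484, minus strand, the first of 2 windows listed, read 5′ to 3′ along the gene). Capitals mark matches on either strand to any of 6 motifs, namely the ETS motif CCGGAAGT, the CCAAT box CCAAT, the GC box GGGCGG, the E-box CACGTG, the CRE TGACGTCA and the PU.1 motif GAGGAAGT. The capitals in this window are 3 copies of the ETS motif:
Sec31a: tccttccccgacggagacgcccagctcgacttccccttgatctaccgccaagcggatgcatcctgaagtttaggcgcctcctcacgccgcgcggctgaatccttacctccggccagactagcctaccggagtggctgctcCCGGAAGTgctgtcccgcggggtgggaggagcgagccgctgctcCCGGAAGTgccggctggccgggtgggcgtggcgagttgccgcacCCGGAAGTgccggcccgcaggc
Of 32851 promoter windows of this length, 2.88% held the ETS motif and 3 windows (0.00913%) held it 3 or more times. A match describes the letters of the window and is not a binding site.

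The partner of Sec31a in the cage was lower. Sec13, which also belongs to the nuclear pore, read 0.17, 0.10, 0.29, 0.18 and -0.02 in the controls and 0.33, -0.60, -0.49, -0.10 and -0.39 on day 1. Day 1 mice 2 to 5 were below the lowest control and mouse 1 was above the highest. The difference was -0.40 ± 0.14 (adjusted p = 0.0468), and the call was lost without any one of 11 mice (adjusted p up to 0.143), with a filter of 2 mice a group and with only the 2 groups in the fit. Sec13 was chosen after its values were seen, as were Sec23b, Sec24d and Sec61g below. Sec23b of the inner coat differed by -0.38 ± 0.14 on day 1 and did not pass (adjusted p = 0.0513). Sec24d, which picks cargo for the coat, was called by the F test (adjusted p = 0.0152) but by no single day, with values on day 5 of 0.06, 0.24, 0.23, 0.15 and 0.19 against -0.15, -0.03, -0.24, -0.24 and -0.14 in control. All 5 day 5 mice were above all 5 controls, and the fitted difference was 0.33 ± 0.13 (adjusted p = 0.226). Of these COPII subunits, 1 was called higher on day 1, 1 was called lower and 2 did not pass, and the differences between subunits were not tested.

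Both catalytic subunits of the signal peptidase, which cuts the signal sequence from proteins entering the endoplasmic reticulum, were lower on day 1. Sec11c had values of 0.47, 0.50, 0.29, 0.44 and 0.31 in control and -0.0046, -0.58, -0.35, -0.75 and -0.05 on day 1. It read -0.84, -0.15, -0.70, 0.07 and 0.05 on day 2 and 0.59, 0.72, 0.49, 1.03 and 0.25 on day 5. No mouse of days 1 or 2 reached the lowest control mouse, and 4 of 5 day 5 mice were above the control mean. The fall was 1.68-fold on day 1 (-0.75 ± 0.18, adjusted p = 0.00558) and 1.64-fold on day 2 (-0.72 ± 0.18, adjusted p = 0.00652), the largest among the members on both days. Sec11a read 0.40, 0.20, 0.15 and 0.20 in the 4 controls with a value and -0.0043, -0.30, -0.12, -0.15 and 0.06 on day 1, again without overlap. It fell by less (-0.34 ± 0.11, adjusted p = 0.0303), and the call was lost without control mouse 1, day 1 mouse 2 or day 1 mouse 3 (adjusted p up to 0.103) and with only the 2 groups in the fit (0.062). Sec61g differed from control by -0.26 ± 0.22 on day 1 and 0.47 ± 0.22 on day 5 and passed neither time (adjusted p = 0.453 and 0.43). The lipid-binding Sec14l1 and Sec14l2 stood -0.45 to 0.17 from control over the 3 days and did not pass.

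Of the 3 coatomer subunits among the members, the epsilon subunit Cope fell on day 1 (8.38% of all features fell). Its values were 0.13, 0.18, 0.29, 0.01 and 0.21 in control and -0.24, -0.45, -0.19, -0.30 and -0.15 on day 1. They were -0.17, 0.07, -0.06, 0.12 and 0.30 on day 2 and 0.17, 0.37, 0.64, 0.80 and 0.19 on day 5. The day 1 mice were all below the controls, while days 2 and 5 overlapped them. The day 1 difference was -0.43 ± 0.12 (adjusted p = 0.0144), and on day 2 it was -0.11 ± 0.12 (adjusted p = 0.555). Copa, the alpha subunit, did not pass on any day, and its 95% interval on day 1 ran from -0.39 to 0.15. Copz1, the zeta subunit, was measured in 4 mice of the control and day 1 groups and differed by -0.43 ± 0.16 on day 2 (adjusted p = 0.0661).

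Arf GTPases recruit COPI and the adaptors to membranes, and 3 genes of this group were members. Arf4, a Golgi Arf, read -0.37, 0.08, 0.54, 0.15 and -0.42 in control and -0.26, -0.84, -0.79, -0.25 and -0.39 on day 1. Control mice 1 and 5 lay within the day 1 range. The day 1 difference of -0.50 ± 0.17 passed (adjusted p = 0.0426), but the call was lost without control mouse 2, 3 or 4 or day 1 mouse 2, 3 or 5 (adjusted p up to 0.139), and after array scaling, after quantile normalization and with only the 2 groups in the fit (up to 0.116). Arf3 did not pass on any day (-0.20 ± 0.14 on day 1, adjusted p = 0.324). Arl2bp, the binding partner of the small GTPase Arl2, passed on day 2 and not on day 1, and the difference between those days did not pass (adjusted p = 0.0803). Its values were 0.12, 0.04, 0.26, 0.41 and -0.07 in control, 0.28, -0.00023, -0.18, 0.20 and -0.23 on day 1 and -0.65, -0.29, -0.40, -0.31 and -0.23 on day 2, and on day 5 they were -0.11, -0.33, -0.38, -0.21 and -0.24. Days 2 and 5 lay wholly below the controls and day 1 overlapped them. Arl2bp was 1.44-fold lower on day 2 (-0.53 ± 0.12, adjusted p = 0.00323), and on day 5 the difference of -0.40 ± 0.12 missed the threshold (adjusted p = 0.0652).

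The 13 Rab genes split by direction. On day 1, 2 rose and 2 fell (10.7% and 8.38% of all features). On day 2, 3 rose and 3 fell (9.61% of all features in each direction). Rab1b, the GTPase that works between the endoplasmic reticulum and the Golgi, read -0.05, 0.12, 0.14, -0.37 and 0.06 in control and 0.46, 0.84, 0.62, 0.36 and 1.03 on day 1. It read 0.53, 0.19, 0.42, 0.55 and 0.43 on day 2 and 0.39, 0.03, 0.11, -0.45 and 0.0034 on day 5. Days 1 and 2 were above all controls, and day 5 was spread around them. The rise was 1.6-fold on day 1 (0.68 ± 0.14, adjusted p = 0.00287) and 1.36-fold on day 2 (0.44 ± 0.14, adjusted p = 0.0348). The day 2 call was lost without control mouse 1 or 4 or day 2 mouse 1, 3 or 4 (adjusted p up to 0.1), and after array scaling and quantile normalization (up to 0.0955).

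Rab34, a Golgi Rab that positions lysosomes, had control values of -0.13, -0.23, -0.29, 0.20 and -0.15 and day 1 values of 0.13, 0.61, 0.52, 0.22 and 0.58. The day 2 mice read 0.82, 0.30, 0.83, 0.75 and 0.43 and the day 5 mice 0.06, -0.04, -0.01, 0.07 and -0.06. Control mouse 4 was the highest control and overlapped day 1, and day 2 lay wholly above the controls. The difference was 0.53 ± 0.12 on day 1 (adjusted p = 0.0047) and 0.75 ± 0.12 on day 2 (adjusted p = 0.000275), a 1.68-fold rise. Rab38, which serves melanosomes and other organelles related to lysosomes, rose on day 2. Its values were 0.10, 0.07, 0.10, -0.17 and 0.06 in control, 0.07, 0.23, 0.20, 0.33 and 0.11 on day 1 and 0.52, 0.30, 0.54, 0.46 and 0.42 on day 2. The day 2 mice did not overlap the controls, with a difference of 0.41 ± 0.09 (adjusted p = 0.00261), while day 1 differed by 0.15 ± 0.09 (adjusted p = 0.236) and day 2 against day 1 did not pass (adjusted p = 0.139).

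The Rab promoters are shown because Rab1b and Rab34 rose on days 1 and 2 while Rab9 fell, and their windows share none of the 6 motifs. In the window of Rab1b (chr19:5106997-5107246, minus strand) the capitals are 1 CCAAT box, read on the opposite strand, and 2 GC boxes. The windows of Rab34 (chr11:78188177-78188426, plus strand, the first of 2 listed) and Rab9 (chrX:166479868-166480117, minus strand) held none of the 6:
Rab1b: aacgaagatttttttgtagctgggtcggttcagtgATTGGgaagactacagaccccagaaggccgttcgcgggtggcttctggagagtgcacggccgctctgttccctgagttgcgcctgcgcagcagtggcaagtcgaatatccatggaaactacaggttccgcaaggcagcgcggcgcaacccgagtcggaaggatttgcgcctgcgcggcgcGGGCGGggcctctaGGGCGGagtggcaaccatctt
Rab34: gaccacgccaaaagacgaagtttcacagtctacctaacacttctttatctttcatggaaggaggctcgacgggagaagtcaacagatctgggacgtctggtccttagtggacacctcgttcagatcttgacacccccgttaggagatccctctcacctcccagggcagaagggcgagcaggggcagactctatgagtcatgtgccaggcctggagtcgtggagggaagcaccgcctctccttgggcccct
Rab9: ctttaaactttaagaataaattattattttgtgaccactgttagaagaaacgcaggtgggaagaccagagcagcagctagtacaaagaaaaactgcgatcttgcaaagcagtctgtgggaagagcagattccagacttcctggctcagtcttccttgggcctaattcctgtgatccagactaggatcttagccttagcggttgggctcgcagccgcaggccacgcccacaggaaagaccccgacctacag
RefSeq windows were found for 47 of the 60 members, 55 windows in all. The CCAAT box was in 41.8% of them (33.8% of all 32851 windows), the GC box in 61.8% (32.7%), the E-box in 1.82% (6.02%), the ETS motif in 5.45% (2.88%), the CRE in 3.64% (1.55%) and the PU.1 motif in 3.64% (2.44%). These shares are given as a description, without a test.

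Rab9, which returns receptors from late endosomes to the trans-Golgi, was the Rab with the smallest F test p. Its values were 0.21, 0.22, 0.23, 0.12 and -0.04 in control and -0.08, -0.59, -0.53, -0.30 and -0.35 on day 1. On day 2 they were -0.43, -0.09, -0.26, -0.23 and -0.12, and on day 5 0.14, 0.42, 0.32, 0.71 and 0.44. Days 1 and 2 lay below every control mouse. The fall was 1.43-fold on day 1 (-0.52 ± 0.11, adjusted p = 0.00349) and 1.3-fold on day 2 (-0.38 ± 0.11, adjusted p = 0.0231), the latter lost without control mouse 1 or 3 or day 2 mouse 1 or 3 (adjusted p up to 0.0759). Rab37, a Rab of secretory granules in mast cells, was measured in 3 or 4 mice of each group. It read 0.42, 0.15, 0.55 and -0.04 in control and -0.19, -0.18, -0.27 and -0.19 on day 1, without overlap, and fell by 1.39-fold (-0.48 ± 0.13, adjusted p = 0.0154).

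Rab6a and Rab5if passed against control on day 2 and not on day 1, and the difference between days 1 and 2 did not pass for either (adjusted p = 0.184 and 0.992). Rab6a, a Golgi Rab for traffic back towards the endoplasmic reticulum, read 0.0031, 0.04, -0.18, -0.44 and 0.13 in control and -0.81, -0.44, -0.76, -0.53 and -0.23 on day 2. Control mouse 4 lay within the day 2 range and the other controls were above it. The difference was -0.47 ± 0.14 (adjusted p = 0.0187), lost without control mouse 5 or day 2 mouse 1 or 3 (up to 0.0645). Rab5if read 0.23, 0.39, 0.50, 0.45 and 0.17 in control and -0.24, 0.11, -0.06, 0.12 and 0.11 on day 2, without overlap. Its difference of -0.34 ± 0.12 was close to the threshold (adjusted p = 0.0492), and the call was lost without any one of 12 mice (up to 0.149) and with a filter of 2 mice a group. The remaining Rab genes, among them Rab4a, Rab31 and Rab33a at -0.10 to 0.24 from control over the 3 days, did not pass against control on any day. Among them Rab2b, a Golgi Rab chosen after its values were seen, came closest on day 5 (-0.41 ± 0.12, adjusted p = 0.0602).

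The AP complexes had 10 subunits among the members. On day 1, 1 rose (10.7% of all features). On day 2, 1 rose and 1 fell (9.61% of all features in each direction). Ap1g2, a second gamma subunit of the AP-1 type, read -0.10, 0.03, -0.01, -0.20 and -0.12 in control and 0.41, 0.67, 0.69, 0.12 and 0.53 on day 1. It read 0.72, 0.05, 0.44, 0.27 and 0.15 on day 2 and 0.27, -0.09, -0.15, -0.49 and -0.10 on day 5. All mice of days 1 and 2 were above all controls. The rise was 1.48-fold on day 1 (0.56 ± 0.14, adjusted p = 0.00724). On day 2 it was 1.32-fold (0.41 ± 0.14, adjusted p = 0.0406), a call lost without control mouse 1, 3, 4 or 5 or day 2 mouse 1, 3 or 4 (up to 0.143) and after array scaling or quantile normalization (up to 0.0624). The 2 other AP-1 subunits stayed near control on day 1, with 95% intervals of -0.25 to 0.38 for Ap1m1 and -0.19 to 0.28 for Ap1s1.

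Ap4b1, the beta subunit of the AP-4 complex of the trans-Golgi, fell on day 2. The control mice read -0.08, -0.02, 0.12, 0.38 and -0.18 and the day 2 mice -0.87, -0.38, -0.84, -0.44 and -0.53. Day 1 was split, at 0.11, -0.48, -0.46, 0.07 and -0.41, and day 5 read -0.15, 0.04, -0.21, -0.07 and -0.15. Day 2 lay wholly below control, a 1.58-fold fall (-0.66 ± 0.14, adjusted p = 0.00203). Ap3s1 is the sigma subunit of AP-3, which carries proteins to lysosomes and to granules, and it had values in only 3 control and 3 day 1 mice. It read 0.61, 0.20 and 0.55 in control, -0.29, -0.14 and 0.09 on day 1, -0.04, -0.01, -0.16, 0.34 and 0.21 on day 2 and 1.14, 1.24, 1.46 and 0.11 on day 5. The day 1 difference of -0.57 ± 0.25 did not pass (adjusted p = 0.116). The other AP-3 subunits, Ap3b1, Ap3d1 and Ap3m1, differed from control on day 1 by -0.15, 0.08 and -0.16, none past the threshold. Ap2b1 of the plasma membrane complex and Ap4s1 did not pass either, at 0.07 and -0.35.

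Among the 7 sorting nexins, Snx24 rose more than any other member. It carries the lipid-binding PX domain that defines the family. Its control values were -0.03, -0.16, -0.40, -0.85 and -0.24, and on day 1 it read 0.50, 0.92, 1.04, 0.11 and 1.00. On day 2 it read 1.04, 0.37, 0.87, 0.88 and 0.73 and on day 5 -0.09, -0.28, -0.23, -1.32 and -0.31. Days 1 and 2 were above every control mouse, and day 5 mouse 4 was far below the rest of its group. Snx24 was 2.07-fold higher on day 1 (1.05 ± 0.21, adjusted p = 0.0018) and 2.16-fold higher on day 2 (1.11 ± 0.21, adjusted p = 0.000934). On day 5 the difference was -0.11 ± 0.21, with a 95% interval of -0.54 to 0.32. A second Snx24 probe had a value in a single day 1 mouse, mouse 4 (-0.12), and was averaged with the first there. The first probe alone had a day 1 mean of 0.76, against 0.71 with both.

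**Figure D2:**
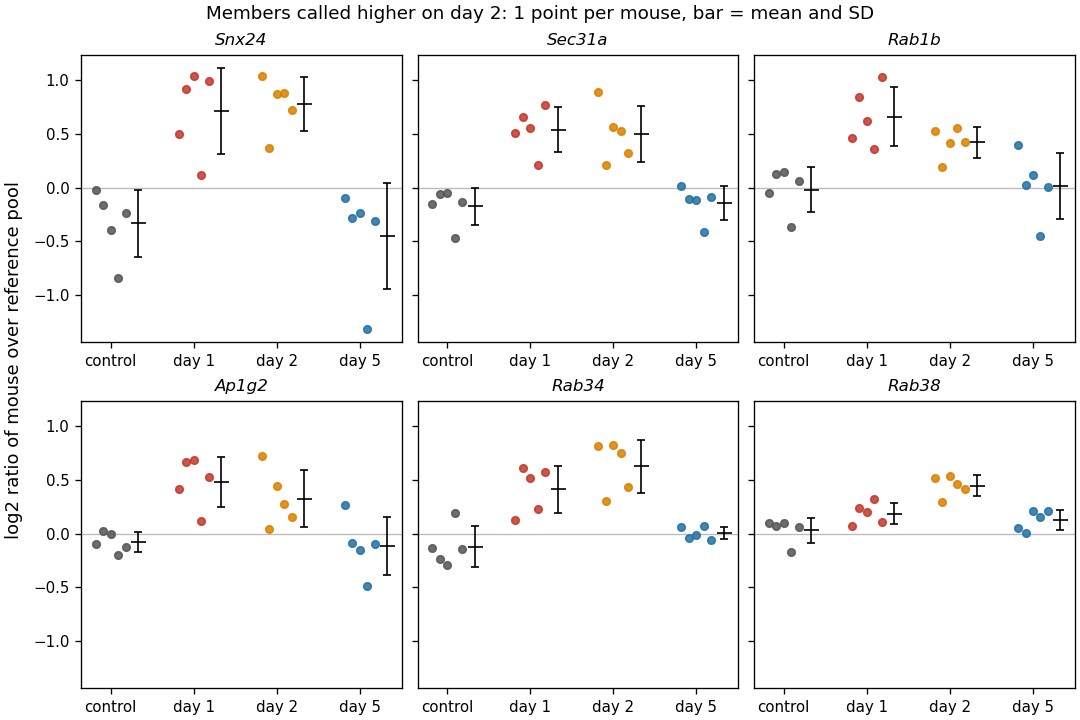
Log2 ratio of mouse over reference pool (y axis) for the 6 members that rose on day 2, by group (x axis). Each point is 1 mouse and the bar beside each group is its mean and SD. In Snx24, Sec31a, Rab1b and Ap1g2 the day 1 and day 2 mice sit above all controls, and day 5 mouse 4 is the lowest of its group in each of these 4 panels.

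Other sorting nexins were lower. Snx3, which helps retromer return the transferrin receptor, read 0.10, 0.14, 0.32, 0.17 and -0.05 in control and -0.57, -0.19, -0.53, 0.10 and -0.06 on day 2, with day 2 mouse 4 among the control values and the other day 2 mice below them. The difference was -0.38 ± 0.12 (adjusted p = 0.0325), lost without control mouse 1, 2, 3 or 4 or day 2 mouse 1 or 3 (up to 0.113). Snx10, which bone-resorbing osteoclasts need, was measured in 3 day 2 mice at -0.33, -0.07 and -0.27 against 0.29, 0.13, 0.14, 0.41 and 0.19 in control. It fell by 1.37-fold (-0.45 ± 0.16, adjusted p = 0.045), a call lost without any one of 8 mice (up to 0.0909), with the arrays kept apart (0.198) and with a filter of 2 mice a group. Snx2, a membrane-bending partner of retromer, was the single member that differed on day 5. It read -0.02, 0.06, -0.11, -0.11 and -0.31 in control and -0.17, -0.67, -0.41, -0.07 and -0.33 on day 1. On day 2 it read -0.12, -0.05, -0.36, -0.20 and -0.28 and on day 5 -0.50, -0.52, -0.59, -0.81 and -0.49. Day 5 lay wholly below control, 1.4-fold lower (-0.49 ± 0.11, adjusted p = 0.0132), while days 1 and 2 overlapped control and did not pass (adjusted p = 0.144 and 0.56). Snx4, Snx6 and Snx20 lay at -0.21 to 0.23 from control over the 3 days and did not pass.

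The Vps group sorts and tethers at endosomes and lysosomes, and 0 of its 8 members were called by limma on day 1, 2 or 5. Of all features, 19.1%, 19.2% and 2.62% were called on these days, so 0 of 8 is not read as a trait of the group. Vps28, a subunit of the ESCRT-I complex that sends receptors into lysosomes, came closest on day 2, at -0.62, 0.05, -0.25, -0.12 and -0.12 against 0.41, 0.34, 0.12, 0.01 and 0.24 in control (-0.44 ± 0.16, adjusted p = 0.0534). Vps50, of an endosomal recycling complex, had 3 control values of -0.05, -0.05 and -0.08 and 3 day 1 values of 0.35, 0.33 and 0.35. Those 2 sets did not overlap, and the difference of 0.41 ± 0.15 missed the threshold (adjusted p = 0.0615). The 2 Vps50 probes averaged in these values differed from each other. Each was read in 2 day 1 mice, with day 1 means of 0.04 and 0.65, and stood 0.18 and 0.59 from control. Vps35, the core of retromer, stood -0.25 ± 0.10 from control on day 2 (adjusted p = 0.0946). Its 95% interval of -0.46 to -0.04 excludes a 2-fold change for the average of its 2 probes. Those probes stood -0.13 and -0.37 from control on that day. The other 5, Vps11, Vps26c, Vps33a, Vps37a and Vps4a, lay at -0.28 to 0.21 over the 3 days.

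The syntaxins and VAMPs had 7 members, and 1 rose on day 1 (10.7% of all features). Stx11, the SNARE that cytotoxic lymphocytes need to release their granules, read 0.02, -0.05, -0.27 and 0.16 in the 4 control mice with a value and 0.32, 0.21, 0.26, 0.63 and 0.73 on day 1. It read -0.08, 0.24, -0.09, -0.36 and 0.15 on day 2 and -0.20, -0.37, -0.49, -0.06 and -0.26 on day 5. Only the day 1 mice were all above control. The rise was 1.38-fold (0.47 ± 0.14, adjusted p = 0.0209) and was lost without control mouse 4 or day 1 mouse 5 (up to 0.0726). On day 2 the difference was 0.01 ± 0.14, and day 2 against day 1 gave -0.46 ± 0.13 (adjusted p = 0.0654). Stx7, of late endosomes, had 95% intervals of -0.13 to 0.30 on day 1 and -0.12 to 0.31 on day 5 and passed in no comparison. Vamp5 was measured in 3 day 1 mice and stood -0.38 ± 0.16 from control (adjusted p = 0.0989). Stx12, Stx17 and Vamp1 lay at -0.15 to 0.20 over the 3 days and did not pass.

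**Figure D3:**
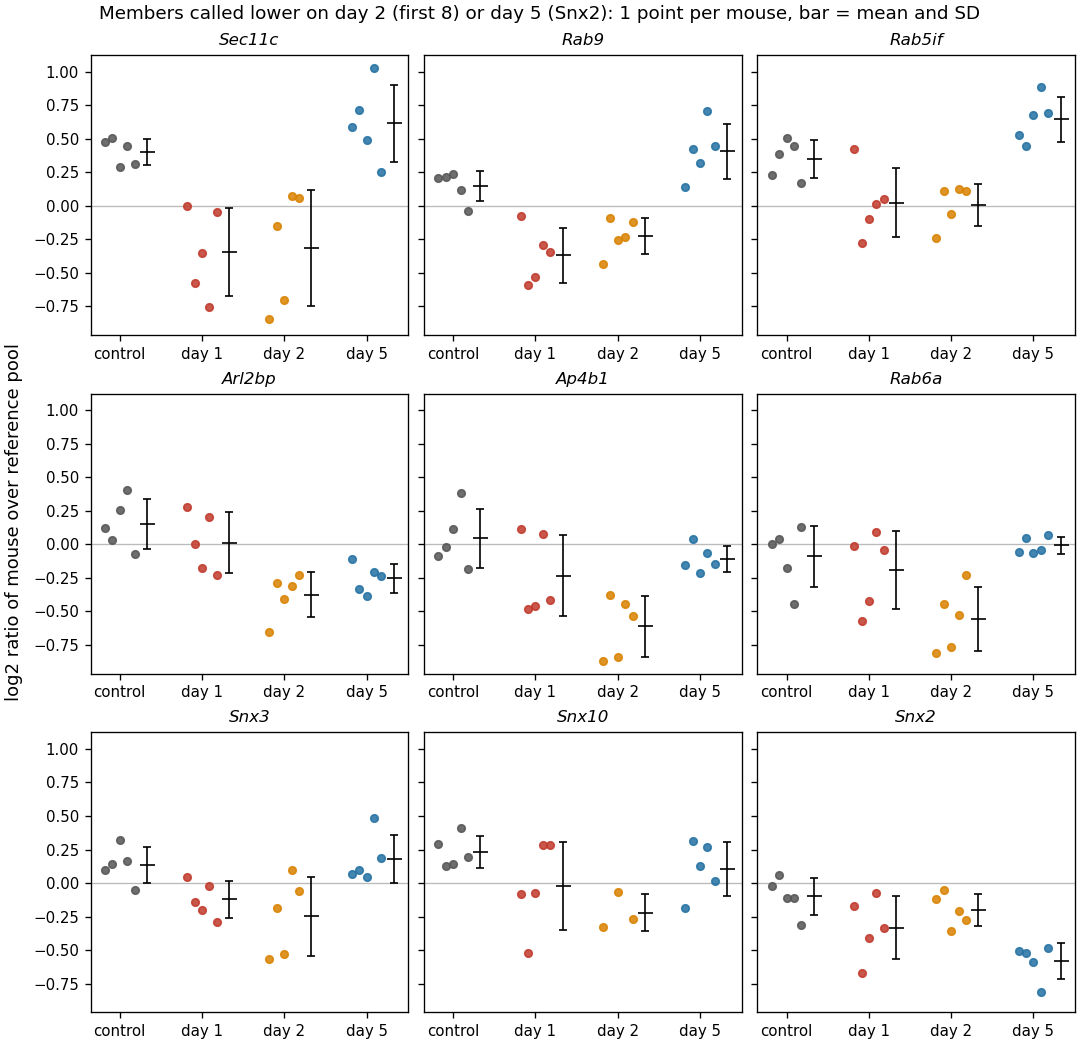
Log2 ratio of mouse over reference pool (y axis) for the 8 members that fell on day 2 and for Snx2, which fell on day 5, by group (x axis). Each point is 1 mouse and the bar beside each group is its mean and SD. Sec11c and Rab9 are below all controls on days 1 and 2, Arl2bp and Ap4b1 on day 2, and Snx2 on day 5, while Rab5if and Rab9 on day 5 are mostly above the control mean.

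Between day 1 and day 2, 0 of the 60 members passed in limma's test (2.1% of all features did, 1.36% higher and 0.736% lower). An unadjusted p under 0.05 was found for 9 (15%, against 13.2% of all features), and 3 passed with the arrays kept apart. The share of all features in that last fit is not given here. Between day 2 and day 5, 19 members differed (31.7%, against 20.8% of all features). Of these, 12 were higher on day 5 (20% of the members, against 10.3% of all features) and 7 lower (11.7%, against 10.5%). The mice of these days did not overlap for 16 members (26.7%, against 18.9% of all features). These gaps between shares were not tested. This comparison shares the day 2 mice with that of day 2 against control, so the 2 are not independent. Snx24 dropped most, by -1.22 ± 0.21 (adjusted p = 0.000195). Sec31a (-0.64), Rab34 (-0.62), Ap1g2 (-0.44), Rab1b (-0.41), Snx2 (-0.38) and Rab38 (-0.32) were also lower on day 5 than on day 2. Of these, Ap1g2 lost its call without day 2 mouse 1 or 3 or day 5 mouse 4 (up to 0.0962), and Rab1b without any one of 13 mice (up to 0.157). Both also lost it after array scaling and quantile normalization (up to 0.0803 and 0.215).

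Higher on day 5 than on day 2 were Sec11c, by 0.93 ± 0.18 (adjusted p = 0.00057), and Ap3s1, by 0.92 ± 0.20 (adjusted p = 0.00315), each close to 1.9-fold. Vps28 rose by 0.74 ± 0.16 (adjusted p = 0.00165), with every day 5 mouse above every day 2 mouse. Rab32, a relative of Rab38 that also serves organelles related to lysosomes, was chosen after its values were seen. It read -0.05, 0.06, -0.03, 0.09 and -0.07 in control, -0.45, -0.15, -0.03, -0.35 and -0.27 on day 2 and 0.41, 0.27, 0.32, 0.72 and 0.41 on day 5, and the day 5 mice were above all others of these groups. Its rise from day 2 was 0.68 ± 0.15 (adjusted p = 0.00189), while day 5 against control gave 0.43 ± 0.15 (adjusted p = 0.159). Rab5if (0.64), Rab9 (0.63), Rab6a (0.55), Ap4b1 (0.50), Snx3 (0.43), Cope (0.38), Stx18 of the endoplasmic reticulum (0.37) and Sec11a (0.31) were the other 8 members higher on day 5 than on day 2. The calls of Cope, Snx3 and Sec11a were lost without 1 of 4, 3 and 5 single mice, day 2 mice 1 and 3 among them in each case (up to 0.0793, 0.063 and 0.108), and that of Cope also with only the 2 groups in the fit (0.0564). Rab4b, of recycling endosomes and also chosen after its values were seen, was called by the F test (adjusted p = 0.0388) and by no comparison of days.

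Snx24, Rab1b, Sec31a and Ap1g2, which rose, also varied together from mouse to mouse within groups. As a measure of likeness to Snx24, Pearson's r was taken over the 20 mice after the mean of each group had been subtracted. It was 0.85 for Rab1b, 0.83 for Sec31a and 0.81 for Ap1g2, and 0.25 for Rab34 and 0.18 for Rab38. Spearman's rho was 0.62, 0.63 and 0.79 for the first 3. Without day 5 mouse 4 and day 1 mouse 4, the mice with the most extreme Snx24 values for their group, r was 0.76, 0.77 and 0.69 for these 3, 0.30 for Rab34 and 0.60 for Rab38, so the lower likeness of Rab38 over all mice rests on those 2 mice. For day 1 mouse 4 the Snx24 value averaged 2 probes, so its extreme place rests in part on the second probe. The points share arrays and the reference, and no p is given. Among the 5237 features that are not members, 61 (1.16%) had an r of 0.8 or more with Snx24. Of these, 59 were higher on day 1 and 59 on day 2, with medians of 0.73 and 0.75 and of -0.05 on day 5.

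Some of those 61 features are genes best known from other tissues. Krt1 is a keratin of skin, Prph and Elavl2 are neuronal, Tuba3a is a testis tubulin, Gja10 is a connexin of the retina and Mbl1 is a liver lectin. These 6 were picked after their values were seen and because they resembled Snx24. Their mean ratio per mouse ran from -0.60 to -0.05 in control and from 0.01 to 0.76 on day 1. It ran from 0.11 to 0.79 on day 2 and from -0.76 to -0.01 on day 5, so the treated groups of days 1 and 2 did not overlap the controls. Control mouse 4 and day 5 mouse 4 were the lowest of their groups in this mean and in Snx24, Sec31a, Rab1b and Ap1g2. Control mouse 4 had no value for Prph or Elavl2, so its mean is over the other genes, with Tuba3a at -1.21. The part of this shared variation in the rises of Snx24, Sec31a, Rab1b and Ap1g2 was not tested.

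**Figure D4:**
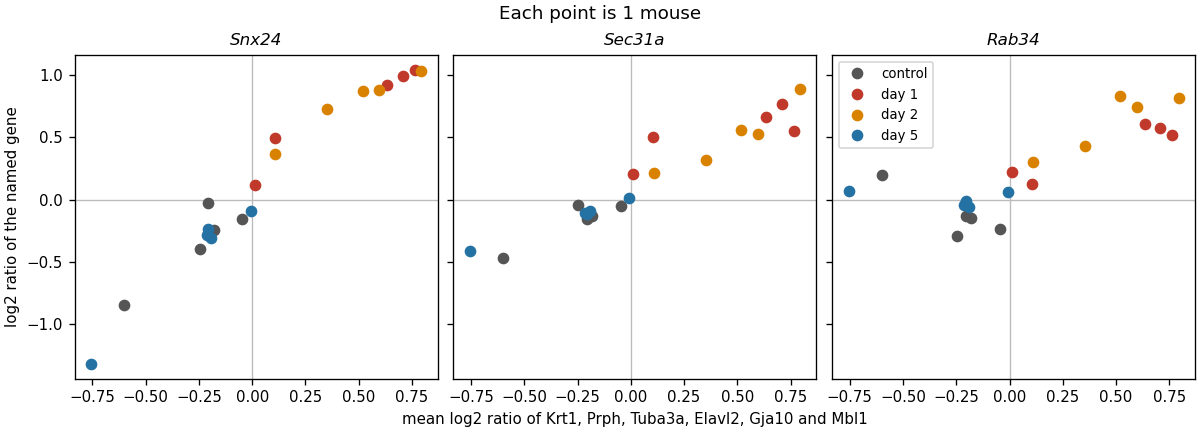
Log2 ratio of Snx24, Sec31a and Rab34 (y axis) against the mean log2 ratio of Krt1, Prph, Tuba3a, Elavl2, Gja10 and Mbl1 (x axis). Each point is 1 of the 20 mice, coloured by group. Control mouse 4 had no value for Prph or Elavl2, and its mean is over the other genes. The mice lie close to a line for Snx24 and Sec31a, including 1 control and 1 day 5 mouse at the lower left. These same mice are not low for Rab34. The genes of the x axis were picked for their likeness to Snx24. A line for Snx24, and in part for Sec31a, therefore follows from that choice.

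Trafficking genes outside the symbol rule, taken from 5 lists of partners, were counted in the same way. Of 181 listed genes 40 were tested. On day 1, 3 were higher and 4 lower (10.7% and 8.38% of all features). On day 2, 0 were higher and 7 lower (9.61% of all features in each direction), and on day 5, 1 was higher (0.906%). From day 2 to day 5, 9 rose and 1 fell (10.3% and 10.5%). No difference from the members' counts was tested. The list of cargo receptors and tethers between the endoplasmic reticulum and the Golgi held 19 of them. It had 2 lower on day 1, 2 lower on day 2, 1 higher on day 5 and 5 higher from day 2 to day 5. Of 8 partners of the ESCRT complexes, 1 was higher and 1 lower on day 1, 3 were lower on day 2 and 3 were higher from day 2 to day 5. Sar1b, the GTPase that starts a COPII coat, was lower on day 1 (-0.48 ± 0.10, adjusted p = 0.00227). Tmed3, a cargo receptor of the early pathway, was lower on day 1 (-0.61 ± 0.16, adjusted p = 0.0109) and higher on day 5 (0.66 ± 0.16, adjusted p = 0.0216). From day 2 to day 5 Tmed3 rose by 1.33 ± 0.16 (adjusted p = 3.24e-06). Exoc2, of the exocyst that tethers vesicles at the cell surface, was lower on day 2 (-0.63 ± 0.11, adjusted p = 0.000463), as was the ESCRT-III subunit Chmp2a (-0.74 ± 0.17, adjusted p = 0.00495). The day 1 count of 7 became 2 without day 1 mouse 2 and 4 without control mouse 3, day 1 mouse 3 or day 1 mouse 5, and the day 2 count of 7 became 4 without day 2 mouse 1. The count of 10 between days 2 and 5 became 6 without day 2 mouse 3 or day 5 mouse 4. The day 5 count of 1 became 0 without control mouse 5, day 5 mouse 2 or day 5 mouse 4. Shares of all features in these fits are not given here either.

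Markers of marrow cell types moved with the groups as well. Of 5 late neutrophil markers tested, 4 were lower on day 2 and 1, Mmp9, on day 5, and their mean ratio per mouse ran from -0.09 to 0.25 in control, -0.54 to 0.26 on day 1, -1.60 to -1.11 on day 2 and -0.08 to 0.40 on day 5. Of 5 macrophage markers, 2 were higher on day 1 and 5 on day 2, with means of -0.39 to 0.20 in control, 0.37 to 0.80 on day 1, 0.66 to 1.42 on day 2 and -0.62 to -0.16 on day 5. Endothelial markers were higher on day 1 for 2 of 4 and on day 2 for 3 of 4 (means of -0.19 to -0.08, 0.27 to 0.61, 0.36 to 0.61 and -0.29 to 0.01). Of the 2 stromal and bone markers, 1 was higher on day 1 and both on day 2, with means of -0.39 to -0.08 in control, 0.31 to 1.02 on day 1, 0.25 to 1.25 on day 2 and -0.70 to -0.17 on day 5. Of 3 megakaryocyte markers, 1 was higher on day 1 and 2 on day 2 (means of -0.44 to 0.15, -0.02 to 0.52, 0.32 to 1.40 and -0.40 to 0.19). The lists with markers that were lower from day 2 to day 5 included macrophages with 5, endothelium with 3, stroma and bone with 2 and megakaryocytes with 1.

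Other marker lists were lower early or mixed. Of 3 monocyte markers, 2 were lower on day 1, 1 was lower on day 2, 2 were higher on day 5 and all 3 were higher on day 5 than on day 2, with means of -0.21 to 0.53 in control, -0.69 to -0.26 on day 1, -0.61 to -0.11 on day 2 and 0.61 to 0.77 on day 5. The 2 granulocyte precursor markers were both lower on day 1, and 1 of them was higher on day 5 (means of 0.23 to 0.82, -0.95 to 0.18, 0.18 to 0.68 and 1.16 to 1.92). Both B cell precursor markers tested were lower on all 3 days (means of -0.08 to 0.56, -1.03 to -0.09, -1.97 to -0.63 and -1.82 to -0.34). The 7 erythroid markers split. On day 1, 0 were lower and Alas2, which makes heme, was higher (1.36 ± 0.21, adjusted p = 0.000474). On day 2, 3 were lower while Alas2 and Hba-a1 stood 0.58 and 0.33 above control without passing, and the mean over the list ran from -0.48 to -0.23 in control, -0.73 to -0.14 on day 1, -0.85 to -0.63 on day 2 and -1.42 to -0.14 on day 5. Of 2 markers of mature B and plasma cells, 1 was lower on day 5, and the 1 marker of T and NK cells tested did not pass against control. Among markers not tested for want of values were Mpo, Elane, Ctsg, Camp, Lcn2, S100a8 and Cd79a, and a ratio to the pool does not show which markers are absent. For the cells that define marrow, some listed markers were tested, namely 7 of 10 for red cells, 5 of 10 for late neutrophils and 2 of 6 for B cell precursors. The part of these markers' cells in the changes of the trafficking genes was not tested.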

How the data were processed

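The authors' deposited values are log2 ratios of mouse (Cy5) over a common reference (Cy3), 1 per probe and array. Array medians lay within -0.0151 and 0.00671. Per the labels' protocols, RNA was amplified and labelled with amino allyl chemistry. Scanner, background correction, normalization, probe filter and log base were not given in the sources used here. Blank values (40.7% to 69.7% of probes per array) were not filled in. Of 13443 probes, 10032 had 1 gene symbol, 170 had several and 3241 had no annotation entry, and 10028 were matched to RefSeq names. The 2 arrays of a mouse and then the probes of a gene were averaged, and features with values in at least 3 mice of every group were kept (5297, of which 3926 were named).

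A model with 1 mean per group over 20 mice was fitted in limma 3.58.1 (R 4.3.3) with Benjamini-Hochberg adjustment over all 5297 features. The median standard error on day 1 was 0.132, which limits the precision. The labels call the mice biological replicates and the arrays technical replicates. The steps were tested on simulated data. The members, the lists and the rule for named genes were chosen with earlier results of these data known.

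By that rule 30 members were named. It took up to 8 rises and 8 falls per day past the threshold with every treated mouse on 1 side of the control mean. It also took the 3 smallest F test p-values of each role group, and 19 fixed names, of which 3 were members. Another 7 were named after their values were seen. Promoter windows of 250 bases were read from RefSeq's table for GRCm38.p6. Alternatives were a replicate block, array scaling, quantile normalization, filters of 2 and 5 mice, arrays kept apart, 1 probe per gene, only the 2 groups compared, leaving out values at a shared limit (26 arrays, 561 values, 1 of them of a member, Vps35) and leaving out each mouse.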

Additional observations from a re-analysis of the deposited data

Results flagged for a closer look

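In 137 sets of 4 or 5 mice (1 gene in 1 group), 12 had a mouse far from the others by Dixon's criterion, which chance gives in about 1 set in 20. In control, mouse 4 stood apart for Copz1 (-0.36, nearest 0.13), Rab2b (0.40, nearest -0.08), Rab38 (-0.17, nearest 0.06) and Sec31a (-0.47, nearest -0.16), mouse 2 for Vps35 (-0.30, nearest 0.04) and mouse 5 for Stx18 (-0.10, nearest 0.08). On day 1, mouse 4 stood apart for Rab37 (-0.27, nearest -0.19) and Sec61g (-1.34, nearest -0.32). On day 2, mouse 1 did for Stx18 (0.041, nearest -0.12) and mouse 5 for Sec24d (0.21, nearest -0.0028). On day 5, mouse 4 did for Snx24 (-1.32, nearest -0.31) and Stx18 (0.65, nearest 0.22).

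The difference between the day 5 and day 2 groups passed limma's test for 19 members, given here as day 5 minus day 2 on the log2 scale. It was below 0 for Snx24 (-1.22), Sec31a (-0.64), Rab34 (-0.62), Ap1g2 (-0.44), Rab1b (-0.41), Snx2 (-0.38) and Rab38 (-0.32). It was above 0 for Sec11c (0.93), Ap3s1 (0.92), Vps28 (0.74), Rab32 (0.68), Rab5if (0.64), Rab9 (0.63), Rab6a (0.55), Ap4b1 (0.50), Snx3 (0.43), Cope (0.38), Stx18 (0.37) and Sec11a (0.31).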

How the results depend on the processing

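Of 47 calls of members named in the text, 37 kept direction and side of the threshold under every alternative run with all mice. Of these, 31 also kept them in every fit with a mouse left out, and 0 of the 47 changed sign. Fits that gave no value for a member were not counted. For Ap3s1 (day 5 against day 2) and Rab37 (day 1), 15 of the 21 fits with mice left out gave a value. The count of members differing on day 5 rose from 1 to 2 with all 5 mice required, 3 with the arrays kept apart, 4 after array scaling, 4 with only the 2 groups in the fit and 3 after quantile normalization. Between days 1 and 2 the count of members rose from 0 to 3 with the arrays kept apart, and the day 5 count of the other trafficking genes rose from 1 to 2 with the arrays kept apart, after scaling and after quantile normalization. The cause was not tested. For these fits, those below and the replicate block, shares of all features are not given here. The counts therefore do not separate a change in the members from a general change in calls. Mice were left out 1 at a time, and control mouse 4 and day 1 mouse 1 were also left out together. The member counts then ran from 10 to 15 on day 1, 7 to 16 on day 2 and 1 to 2 on day 5. They ran from 0 to 1 between days 1 and 2, 14 to 21 between days 2 and 5, and 21 to 27 for the F test. Those of the other trafficking genes ran from 2 to 9, 4 to 8, 0 to 2, 0 to 0 and 6 to 10 in the same order. The median member kept its sign on days 1 and 2 in all of these fits (-0.16 to -0.08 and -0.14 to -0.10). Leaving out control mouse 4 and day 1 mouse 1 together was chosen after seeing the data, and these ranges include that fit.

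With the replicate number as a block (replicate block), 12, 14 and 1 members were called on days 1, 2 and 5, 20 between days 2 and 5 and 23 by the F test. Deviations of mice with the same number correlated at 0.0295 on average over 30 pairs, with 8 pairs over 0.1. For mice with different numbers the average was -0.0071 over 120 pairs, with 21 pairs over 0.1. The labels do not say whether equal numbers share a litter, batch or day, and this was not tested. The block ended the calls of Rab5if on day 2 and of Sec13 on day 1. Precision rests on 5 mice a group, and members measured in 3 mice of a group rest on fewer.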
